A study of Mus musculus with 32 samples.

Results

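The genes described here are 5 immediate early genes measured in mouse prefrontal cortex: Jun, Fosl2, Egr1, Klf10 and Ier3. They were taken from a cDNA array by title, as every probe other than an expressed sequence tag whose title named Jun oncogene, a fos-like antigen, the FBJ osteosarcoma oncogene, an early growth response gene or immediate early response 3, which gave 5 of 5163 cDNA probes. The titles were Jun oncogene (Jun), fos-like antigen 2 (Fosl2), early growth response 1 (Egr1), TGFB inducible early growth response (Klf10) and immediate early response 3 (Ier3). The mice came from lines bred from HS/Ibg stock for severe (WSP) or mild (WSR) ethanol withdrawal, each in 2 selection replicates, and adult females and males of each line were used; the sex labels were not checked against the arrays. EtOH mice breathed ethanol vapor for 72 h after an ethanol injection of 1.5 g/kg, or a higher dose in WSP-2, and Air mice stayed in air chambers with no ethanol injection. Every mouse, Air mice included, received 68.1 mg/kg pyrazole, an alcohol dehydrogenase inhibitor that slows ethanol clearance, and the cortex was collected at 0 h after the exposure ended. Each array carried 33P-labelled cDNA from RNA pooled from 2 animals.

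The 8 groups were female WSP EtOH, female WSP Air, female WSR EtOH, female WSR Air, male WSP EtOH, male WSP Air, male WSR EtOH and male WSR Air. Each held 4 arrays, named here by selection replicate and pool, with 2-1 standing for the first pool of selection replicate 2. Array female WSR EtOH 2-1 was marked by the submitters as excluded, which left 31 arrays and 3 in that group. None of the 5 genes passed the test for EtOH against Air in the normalised signals. The mean differences of the 5 genes in the normalised signals ran from -0.03 to -0.55 on the log2 scale, and the sign of 4 of them turned under some other processing. In bulk tissue, fewer cells of a type and less RNA per cell cannot be told apart.

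Immediate early genes are transcribed within minutes of a stimulus without new protein synthesis. Kinase signalling from calcium and growth factor receptors reaches factors already bound at their promoters, and in cortex the transcripts are used as marks of recent neuronal activity. Jun and Fosl2 encode subunits of the dimeric AP-1 transcription factor. Egr1 encodes a zinc finger transcription factor, Klf10 a Kruppel-like factor induced by TGF-beta, and Ier3 a stress-induced protein that affects cell survival and ERK signalling.

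The promoters of 3 of the genes are shown because signalling can reach early genes through elements near the transcription start. Binding at these promoters was not measured. Egr1 was left out of the search and no Klf10 promoter could be read from the promoter set, so the matches say nothing about these genes. They are the 250 bases before the RefSeq transcription start, in build GRCm38.p6, with motif matches on either strand in capitals. The Jun promoter lies at chr4:95052223-95052472 on the minus strand, the Fosl2 promoter at chr5:32136222-32136471 on the plus strand, and the Ier3 promoter at chr17:35821463-35821712 on the plus strand.
Jun: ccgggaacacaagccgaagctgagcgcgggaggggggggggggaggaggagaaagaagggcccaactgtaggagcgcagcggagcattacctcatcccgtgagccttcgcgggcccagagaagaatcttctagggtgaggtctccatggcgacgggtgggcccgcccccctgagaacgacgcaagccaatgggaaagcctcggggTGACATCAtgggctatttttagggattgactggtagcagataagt
Fosl2: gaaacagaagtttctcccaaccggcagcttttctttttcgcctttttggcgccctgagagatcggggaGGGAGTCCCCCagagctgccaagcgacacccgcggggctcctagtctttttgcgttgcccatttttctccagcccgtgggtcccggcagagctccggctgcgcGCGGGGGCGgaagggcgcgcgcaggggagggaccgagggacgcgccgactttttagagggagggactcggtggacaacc
Ier3: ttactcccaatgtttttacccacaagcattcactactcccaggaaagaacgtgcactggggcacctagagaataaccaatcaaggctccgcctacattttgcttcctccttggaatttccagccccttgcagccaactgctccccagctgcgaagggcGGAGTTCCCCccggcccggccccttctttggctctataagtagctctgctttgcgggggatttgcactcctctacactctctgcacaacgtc
The capitals in Jun are TGACATCA, a match to the cAMP response and AP-1 octamer TGACNTCA, 45 to 38 bases before the start. In Fosl2 they are GCGGGGGCG, a match to the Egr site GCGNGGGCG, 79 to 71 bases before the start, and a pair of overlapping kappa B matches 182 to 172 bases before it. In Ier3 they are the kappa B match GGAGTTCCCC, 92 to 83 bases before the start. Among 32851 promoters of the same length, 7.49% held the octamer, 4.70% the Egr site and 3.90% a kappa B match. The AP-1 heptamer TGANTCA (6.75% of promoters), the CArG box (1.47%) and the TATA core TATAAA (12.4%) had no match in these 3 windows. GC content was 61.2% in Jun, 64.4% in Fosl2 and 54.4% in Ier3, against a median of 52.4% over all promoters.

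Most readings of these genes lay close to the background of the array. A probe was counted as above background where its signal exceeded the single background reading of that array. The same comparison matches nearly all blanks in the authors' value table, but whether the signal had been background-subtracted before deposit is not given in the sources used here, and signals were taken as not subtracted. Egr1 was above background on 6 of 31 arrays (1 of 15 EtOH and 5 of 16 Air), Jun on 9 (5 EtOH and 4 Air) and Fosl2 on 11 (4 EtOH and 7 Air). Ier3 was above background on 18 arrays (8 EtOH and 10 Air) and Klf10 on 20 (9 EtOH and 11 Air), and the median over all probes was 13 arrays. The median ratio of signal to background was 0.903 for Jun, 0.940 for Fosl2, 0.839 for Egr1, 1.08 for Klf10 and 1.10 for Ier3. The highest single ratios were 3.48 for Klf10 (female WSP Air 2-2) and 3.41 for Egr1 (female WSR Air 1-1).

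**Figure D1:**
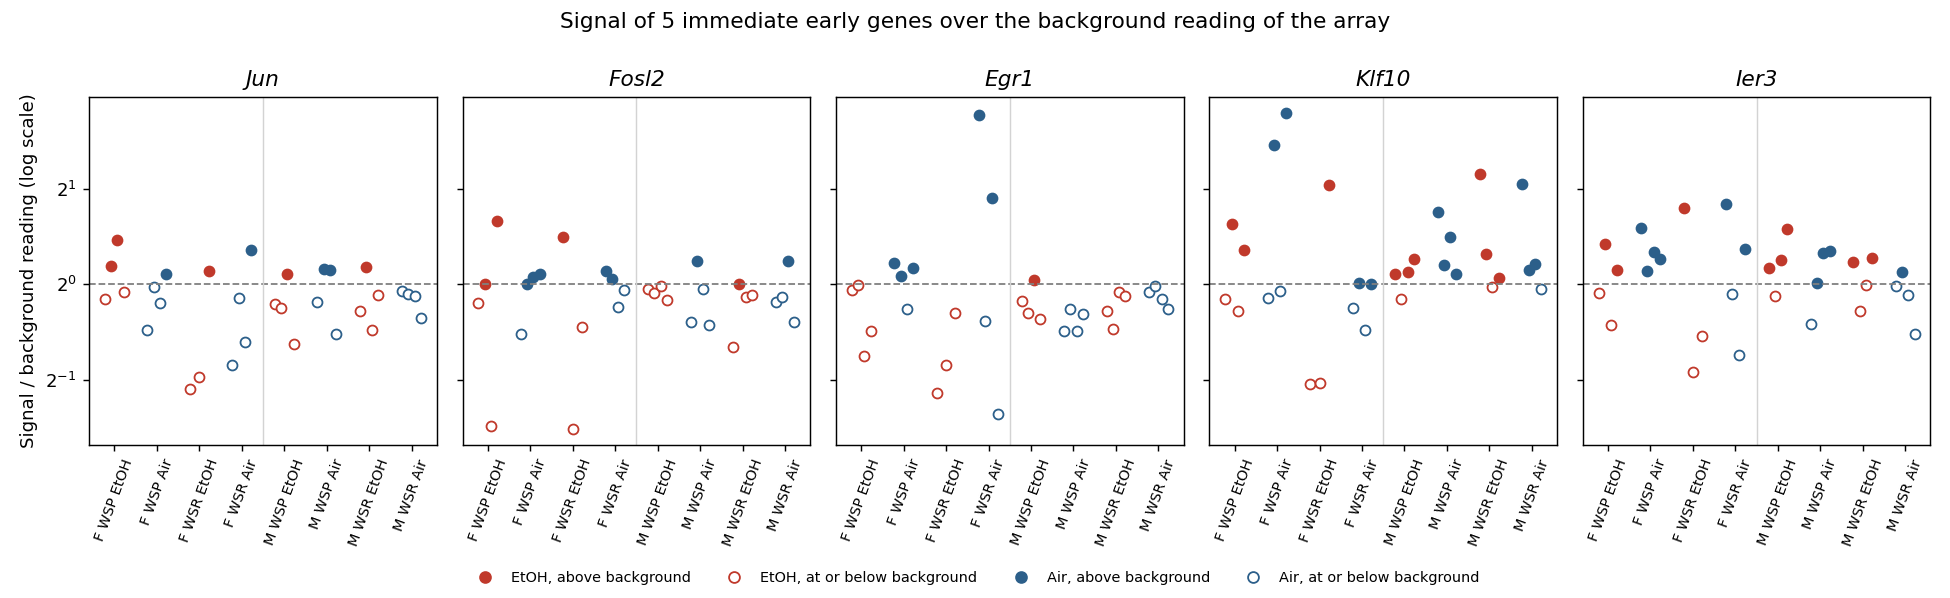
Ratio of signal to the background reading of the array (vertical axis, log scale) for the 5 genes in the 8 groups (F female, M male), 1 point per array, EtOH in red and Air in blue. Points above the dashed line at 1 are filled, and Egr1 has 1 filled EtOH point and 5 filled Air points.

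Background readings ran from 430 to 769 on the 7 female WSR arrays, 88.4 to 283 on the 4 female WSP pool 1 arrays, 10.3 to 66.8 on the 4 female WSP pool 2 arrays and 8.25 to 41.1 on the 16 male arrays. Readings of 70 or more therefore marked 11 arrays, all labelled female, and line, sex label and background reading cannot be told apart in part of the comparisons. The share of probes above background was 15.8% to 82.5% per array. Among markers of the tissue, glutamine synthetase of astrocytes was above background on 31 arrays, somatostatin on 24, myelin proteolipid protein on 22 and synapsin I on 12. Of markers of other tissue, transthyretin of choroid plexus was above background on 31 arrays, and the 4 hemoglobin probes were above it on 31 and 5 (alpha) and on 14 and 13 (beta). The summed level of the 4 hemoglobin probes was 9.88 to 11.14 on EtOH arrays and 9.73 to 10.96 on Air arrays, and that of transthyretin 8.49 to 10.21 on EtOH arrays and 8.0 to 10.01 on Air arrays (log2). Linear values were summed, so the brightest probe weighs most. In the limma fits described below, no tested marker was called for EtOH minus Air. The largest differences were 0.61 ± 0.25 for hemoglobin beta minor chain and -0.53 ± 0.19 for somatostatin (log2, adjusted p = 0.855 each). Synapsin I was at 0.27 ± 0.20 and the hemoglobin alpha probe above background on 31 arrays at -0.06 ± 0.13. The part of these markers in the values below was not tested.

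Signals are given below as background-corrected, quantile-normalised log2 values, and differences were tested with limma over the 3872 probes whose mean passed the 25th percentile. Jun, Fosl2, Klf10 and Ier3 passed that filter. Egr1, at the 21.2 percentile of mean signal, did not, and its differences and adjusted p-values come from the same fit over all 5163 probes. The SD between arrays of a group was 0.80 for Jun, 0.83 for Fosl2, 0.95 for Egr1, 0.74 for Klf10 and 0.94 for Ier3 (log2), against a median of 0.64 over all probes. Among females it was 0.91 to 1.29 for the 5 genes, against a median of 0.72 over all probes. Among males it was 0.45 to 0.77, against a median of 0.52.

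**Figure D2:**
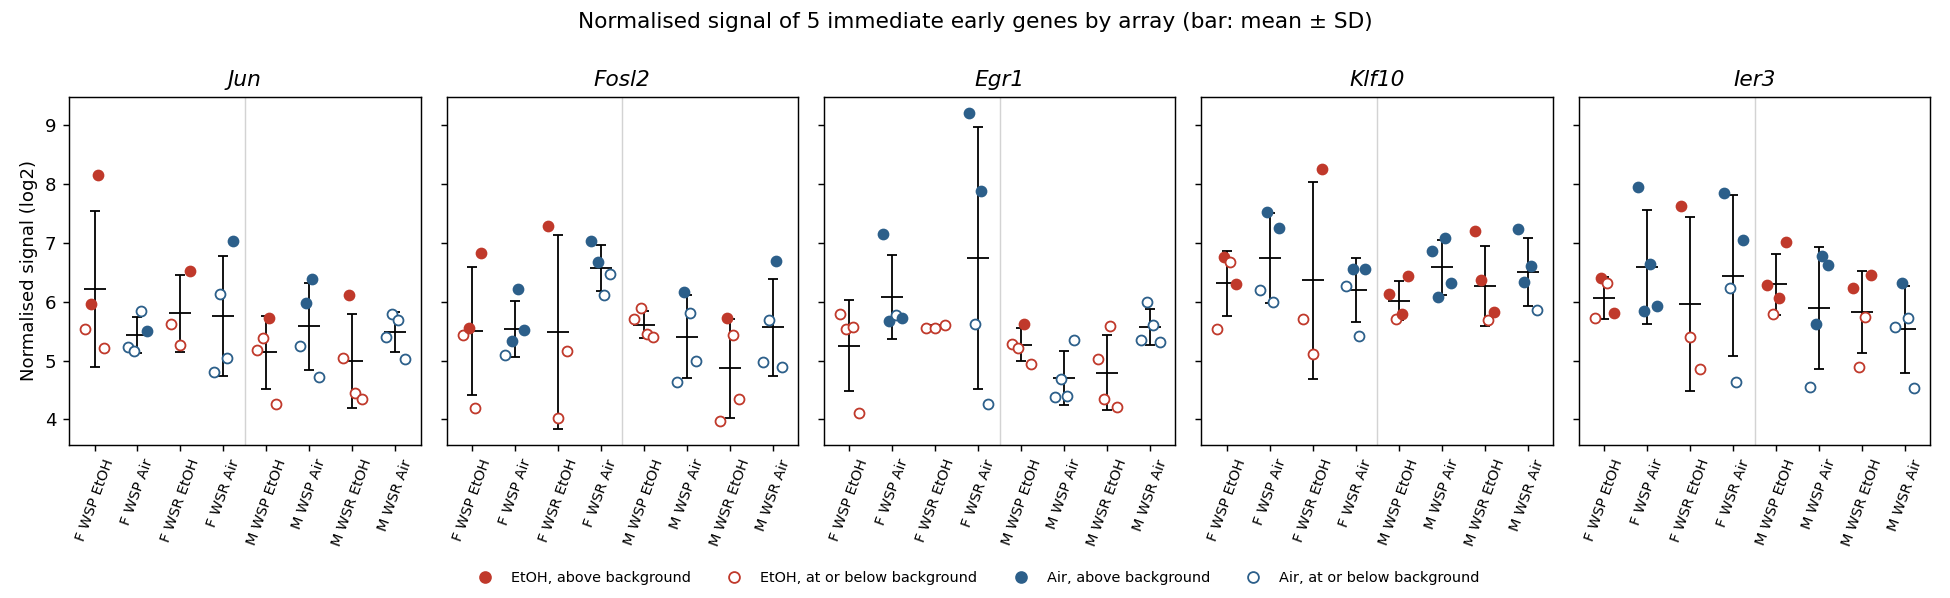
Normalised log2 signal (vertical axis) of the 5 genes in the 8 groups, 1 point per array, filled where above background, EtOH in red and Air in blue, with the mean ± SD as black bars. EtOH and Air arrays overlap in each sex and line for every gene shown.

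Jun read 5.53, 5.96, 8.15 and 5.22 in female WSP EtOH (arrays 1-1, 1-2, 2-1 and 2-2), against 5.23, 5.15, 5.84 and 5.51 in female WSP Air. It read 5.61, 5.27 and 6.52 in female WSR EtOH (1-1, 1-2 and 2-2), against 4.81, 6.13, 5.04 and 7.03 in female WSR Air. Array 2-1 of female WSP EtOH stood above every other Jun reading. In males, Jun read 5.18, 5.38, 5.73 and 4.26 in WSP EtOH against 5.25, 5.98, 6.38 and 4.72 in WSP Air. It read 5.05, 6.11, 4.46 and 4.35 in male WSR EtOH against 5.41, 5.79, 5.69 and 5.03 in male WSR Air. EtOH and Air arrays overlapped in all 4 sets. Over them, Jun differed by -0.03 ± 0.27 (EtOH minus Air, log2 ± SE, adjusted p = 0.989, 95% interval -0.59 to 0.53).

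Fosl2, a partner of Jun in AP-1, read 5.43, 5.55, 4.18 and 6.84 in female WSP EtOH, against 5.09, 5.33, 6.21 and 5.52 in female WSP Air. It read 7.28, 4.03 and 5.15 in female WSR EtOH, against 7.04, 6.67, 6.11 and 6.47 in female WSR Air. The female WSR Air arrays stood close together, while the EtOH arrays lay on both sides of them. In males, Fosl2 read 5.71, 5.89, 5.44 and 5.40 in WSP EtOH against 4.64, 6.17, 5.81 and 5.0 in WSP Air. It read 3.97, 5.72, 5.43 and 4.34 in male WSR EtOH against 4.98, 5.69, 6.68 and 4.89 in male WSR Air. The groups overlapped in each set. The mean difference was -0.40 ± 0.28 (adjusted p = 0.878, 95% interval -0.98 to 0.18), and the female WSR difference was -1.08 ± 0.60 (adjusted p = 0.428). Without female WSR EtOH 1-2, the female WSR difference was -0.35 (adjusted p = 0.850, limma). Array 1-1, at 7.28, stood above every Air array of this set, so leaving it out instead would make the difference more negative.

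Egr1 is the member most often read as a marker of cortical activity. It read 5.80, 5.53, 5.58 and 4.11 in female WSP EtOH, against 7.14, 5.67, 5.77 and 5.72 in female WSP Air. It read 5.55, 5.55 and 5.60 in female WSR EtOH, against 9.21, 5.63, 7.89 and 4.25 in female WSR Air. None of the 7 female EtOH arrays used was above background, against 3 of 4 female WSP Air and 2 of 4 female WSR Air arrays. On the excluded array, female WSR EtOH 2-1, Egr1 was above background (ratio 1.05). Of all probes, 17.3% to 36.2% were above background on female WSR arrays and 15.8% to 82.5% on female WSP arrays. With each female WSP EtOH reading raised to the lowest above-background level of its array, the Air mean of all 4 arrays was 1.02-fold higher. That mean includes array 2-1, below background, and array 1-1 at 7.14, above the other Air arrays. In limma the female WSP difference had a 95% interval of -2.09 to 0.45 (adjusted p = 0.999). In males, Egr1 read 5.28, 5.22, 5.62 and 4.94 in WSP EtOH against 4.37, 4.69, 4.39 and 5.35 in WSP Air. It read 5.02, 4.34, 5.59 and 4.22 in male WSR EtOH against 5.35, 5.99, 5.61 and 5.32 in male WSR Air, with no array of either male WSR group above background. The groups overlapped in each set. The mean difference was -0.55 ± 0.32 (adjusted p = 0.939, 95% interval -1.20 to 0.09).

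Klf10 read 5.53, 6.75, 6.67 and 6.30 in female WSP EtOH, against 6.20, 7.53, 5.99 and 7.26 in female WSP Air. It read 5.71, 5.11 and 8.26 in female WSR EtOH, against 6.27, 6.55, 5.41 and 6.56 in female WSR Air. Array 2-2 of female WSR EtOH stood above every other Klf10 reading. The female WSR difference was 0.16 with that array and -0.79 without it (limma, adjusted p = 0.440 without it). In males, Klf10 read 6.13, 5.70, 5.80 and 6.44 in WSP EtOH against 6.87, 6.08, 7.08 and 6.31 in WSP Air, so that each EtOH array lay below the Air mean of 6.59. It read 7.19, 6.38, 5.69 and 5.83 in male WSR EtOH against 7.24, 6.34, 6.61 and 5.85 in male WSR Air. Klf10 was above background on 13 of the 16 male arrays. The mean difference was -0.27 ± 0.25 (adjusted p = 0.900, 95% interval -0.79 to 0.25). In the authors' own value table, which leaves nearly all spots at or below background blank, Klf10 has a score of 10.56 on female WSR EtOH 2-2, against 8.44 and 8.27 on female WSR Air 1-2 and 2-2. The other EtOH arrays are blank there, with signals below background, so the arrays given were selected by their level and these scores support no difference. A score unit is the SD of log2 signal on an array divided by 2.

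Ier3 read 5.72, 6.41, 6.31 and 5.81 in female WSP EtOH, against 7.95, 5.84, 6.65 and 5.92 in female WSP Air. It read 7.63, 5.40 and 4.85 in female WSR EtOH, against 7.85, 6.23, 4.64 and 7.05 in female WSR Air. Readings in the female WSR groups spread over more than those of any Ier3 group of males. In males, Ier3 read 6.29, 5.80, 6.07 and 7.02 in WSP EtOH against 4.55, 5.62, 6.78 and 6.62 in WSP Air. It read 6.23, 4.88, 5.75 and 6.45 in male WSR EtOH against 5.57, 6.31, 5.72 and 4.53 in male WSR Air. The female differences were negative and the male differences positive, and the mean difference was -0.08 ± 0.32 (adjusted p = 0.977, 95% interval -0.73 to 0.57).

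None of the 4 tested genes passed the threshold of an adjusted p of 0.05 for the mean EtOH response, where 0% of 3872 tested probes did in limma and 210 had an unadjusted p under 0.05. The 5 estimates were all negative, with a median of -0.27 against 0.02 over all 5163 probes, and the estimates come from the same arrays. By sex and line, 0% of tested probes were called in female WSP (148 unadjusted), 0.155% in female WSR (6 probes, 533 unadjusted), 0% in male WSP (36 unadjusted) and 0% in male WSR (34 unadjusted). No member was among the 6 female WSR calls. Counting the 5 genes, 4 had a negative estimate in female WSP, 3 in female WSR, 2 in male WSP and 4 in male WSR.

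**Figure D3:**
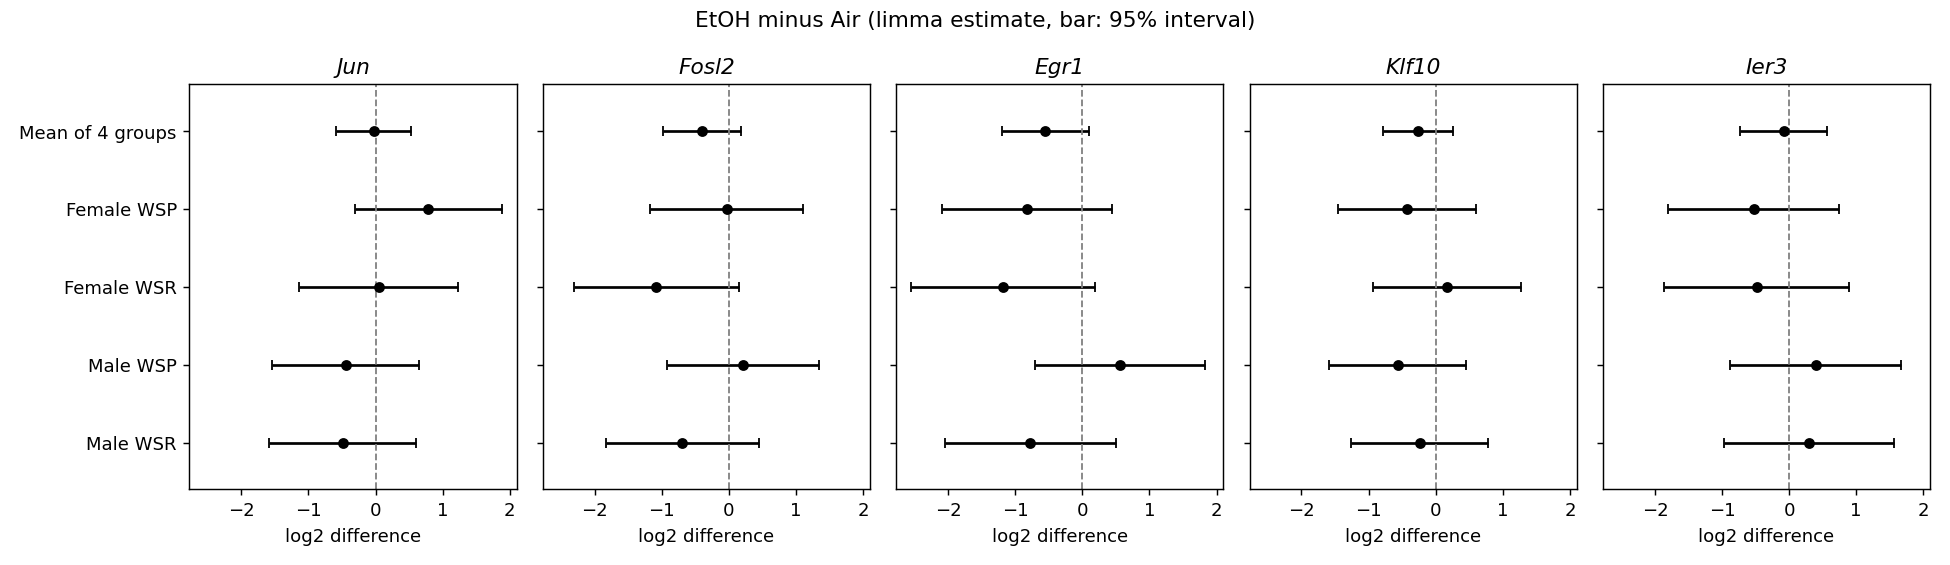
EtOH minus Air difference (horizontal axis, log2) of the 5 genes for the mean of the 4 sets and for each set, with 95% intervals as bars. Each of the 25 intervals includes 0, and Fosl2 and Egr1 in female WSR lie farthest to the left at -1.08 and -1.18.

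Arrays with high and low background readings were also fitted apart, and these classes differ in sex label and line too. Female WSP gave 4 arrays, EtOH and Air together, to each class. On the 20 low-background arrays, the EtOH difference averaged over female WSP, male WSP and male WSR was -0.23 ± 0.25 for Jun, 0.05 ± 0.28 for Fosl2, -0.37 ± 0.22 for Egr1, -0.64 ± 0.24 for Klf10 and 0.28 ± 0.29 for Ier3. On the 11 high-background arrays, averaged over female WSP and female WSR, it was 0.64 ± 0.57 for Jun, -0.97 ± 0.57 for Fosl2, -0.90 ± 0.73 for Egr1, 0.04 ± 0.54 for Klf10 and -0.85 ± 0.65 for Ier3. Egr1 was negative in both classes, and the other 4 genes had opposite signs in the 2 classes. No adjusted p of these averaged differences was below 0.552, and the lowest adjusted p of a member within a single set was 0.480, for Klf10 in female WSP on low-background arrays (-1.12 ± 0.51).

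**Figure D4:**
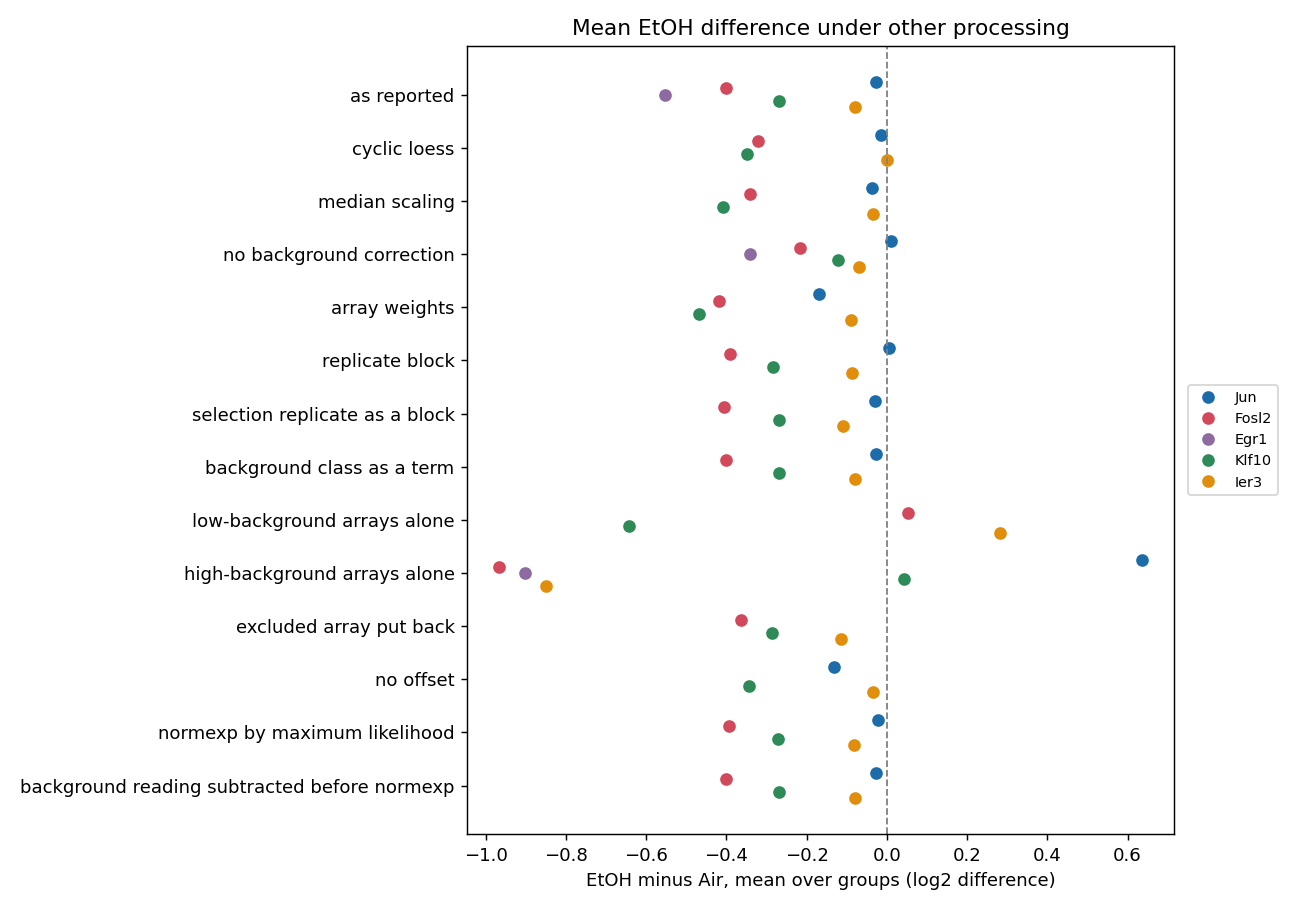
Mean EtOH minus Air difference (horizontal axis, log2) of each gene as reported and under 13 other ways of processing (rows). A gene has no point where it fell below the filter on dim probes, which is the case for Egr1 in most rows; the high-background and low-background rows lie apart from the others.

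Whether the response to ethanol depends on line or sex label was asked next. The WSP minus WSR difference in EtOH response was 0.39 ± 0.55 for Jun, 0.98 ± 0.57 for Fosl2, 0.85 ± 0.63 for Egr1, -0.46 ± 0.51 for Klf10 and 0.03 ± 0.63 for Ier3. None of the tested genes was called, where 0% of tested probes were (197 unadjusted). Fosl2 came closest, with an adjusted p of 0.976 and an interval of -0.19 to 2.14. The WSP-2 mice received the higher ethanol injection, so dose differs within this comparison. The female minus male difference in EtOH response was 0.88 ± 0.55 for Jun, -0.32 ± 0.57 for Fosl2, -0.90 ± 0.63 for Egr1, 0.27 ± 0.51 for Klf10 and -0.85 ± 0.63 for Ier3. Again 0% of tested probes were called (153 unadjusted), with no member among them.

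Levels were then compared between the lines over both treatments. The WSP minus WSR difference was 0.09 ± 0.27 for Jun, -0.11 ± 0.28 for Fosl2, -0.34 ± 0.32 for Egr1, 0.08 ± 0.25 for Klf10 and 0.27 ± 0.32 for Ier3. None was called, where 0.0517% of tested probes were (2 probes, 537 unadjusted).

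Between the sex labels, 26.4% of tested probes were called (1021, of which 265 were higher and 756 lower in females), and none of the 4 tested members was. Jun read 4.81 at the lowest, 5.53 at the median and 8.15 at the highest in females, and 4.26, 5.31 and 6.38 in males. The female minus male difference was 0.50 ± 0.27 for Jun (adjusted p = 0.173), 0.41 ± 0.28 for Fosl2 (0.285), 0.06 ± 0.25 for Klf10 (0.884) and 0.38 ± 0.32 for Ier3 (0.389). Egr1 ran from 4.11 to 9.21 in females with a median of 5.63, and from 4.22 to 5.99 in males with a median of 5.25. Its difference was 0.83 ± 0.32, with an adjusted p of 0.061. Without female WSP EtOH 2-2 it was 0.92 (limma, adjusted p = 0.0303), and without female WSR Air 2-2 it was 1.04 (limma, adjusted p = 0.00418). In those fits 27.8% and 27% of tested probes were called. Egr1 passed the filter there, so these adjusted p-values are not from the fit over all probes. It passed in 4 of the 31 fits that left out 1 array. The arrays left out read low, at 4.11 and 4.25. Leaving out either both let Egr1 pass and raised its female mean, so these calls support no difference. On low-background arrays alone, where WSP is the only line with females, the difference was 0.18 ± 0.29 for Egr1 (adjusted p = 0.773), 0.76 ± 0.31 for Klf10 (0.162), -0.13 ± 0.37 for Ier3 (0.869), 0.30 ± 0.37 for Fosl2 (0.686) and 0.11 ± 0.33 for Jun (0.880). In the authors' value table, Klf10 (1.17 score units, adjusted p = 0.000398) and Ier3 (1.27, adjusted p = 0.0126) were higher in females than in males, where 68.2% of the 1124 probes tested there were called. Klf10 differed by -0.66 units between WSP and WSR in that table (adjusted p = 0.0372), where 31.8% were called. Almost only readings above background enter these scores, and shares of this size make the members' calls no result about them. With background class in the model, 0 probes were called between the sex labels. All male arrays were low in background and all female WSR arrays high, so that model separates class from sex label only through female WSP. On low-background arrays alone, 149 probes were called. The source of the 1021 calls was not tested.

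**Figure D5:**
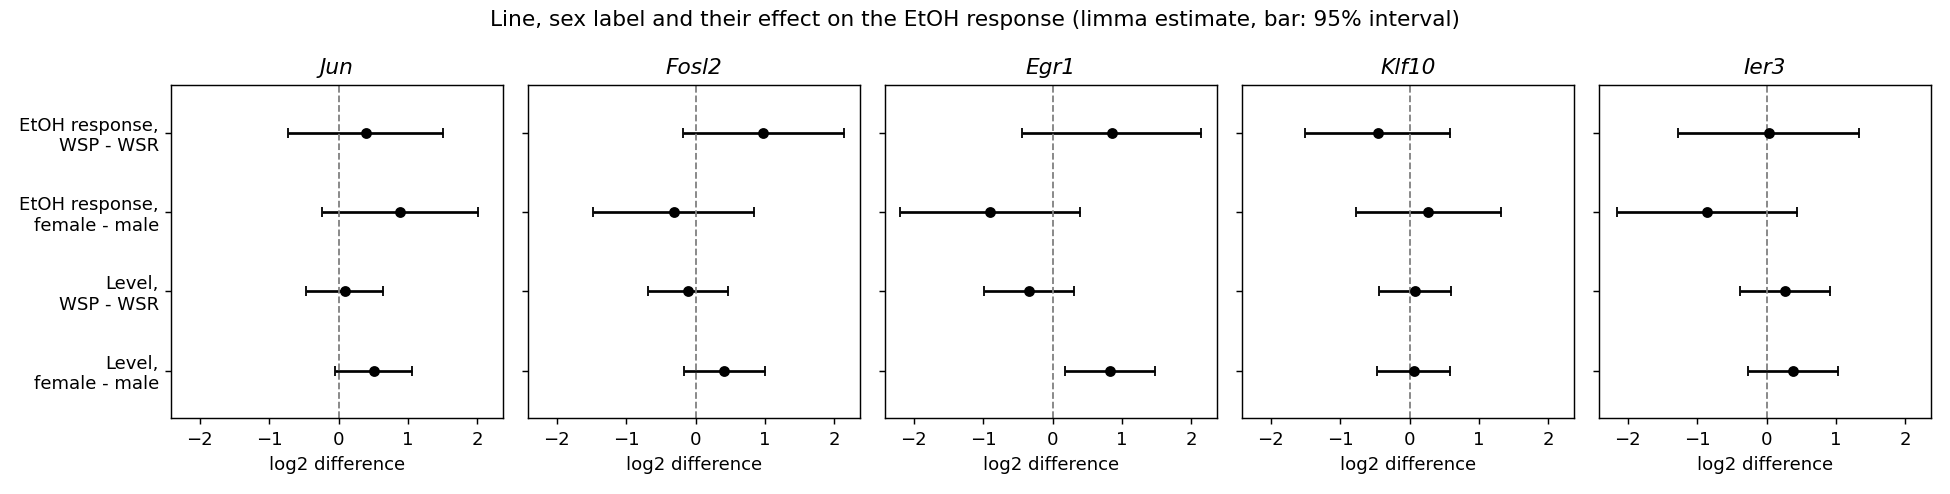
Differences (horizontal axis, log2) of the 5 genes between lines and sex labels, in EtOH response (upper 2 rows) and in level (lower 2 rows), with 95% intervals as bars. Every interval includes 0 except that of Egr1 for the level in females minus males, at 0.83.

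Ordered by group mean, Jun was highest in female WSP EtOH (6.21 ± 1.32, SD, n = 4) and lowest in male WSR EtOH (4.99 ± 0.80, n = 4). Fosl2 was highest in female WSR Air (6.57 ± 0.39) and lowest in male WSR EtOH (4.87 ± 0.84). Egr1 was highest in female WSR Air (6.75 ± 2.22) and lowest in male WSP Air (4.70 ± 0.46). Klf10 spanned 6.74 ± 0.76 in female WSP Air to 6.02 ± 0.34 in male WSP EtOH, and Ier3 6.59 ± 0.98 in female WSP Air to 5.53 ± 0.74 in male WSR Air. Neighbours in these orders lay within the pooled SD of the gene, except that the step below female WSR Air in Fosl2 was 0.96 against an SD of 0.83.

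Genes outside the 5 were counted from a list of other activity-regulated genes, chosen by title. Whether each of them belongs to the same response was not tested, so the counts and median may not be of induced genes alone. Of 9 on the array 6 were tested, 5 of them with a negative mean EtOH difference and 1 with a positive one, and none was called. Their median was -0.12 against 0.01 over all tested probes. Over all 9 the signs were 8 negative and 1 positive, and homer 1, below the filter, was at -0.46 ± 0.34 with the smallest unadjusted p of the 9. Those with the smallest unadjusted p among the 6 were zinc finger protein 36, an mRNA decay factor, at -0.23 ± 0.21, Kruppel-like factor 2 at 0.20 ± 0.20, immediate early response 2 at -0.15 ± 0.16 and homer 3, a postsynaptic scaffold, at -0.21 ± 0.25. Of 16 probes listed for the signalling route to the early genes, 11 were tested and none was called. Of the 11, 4 were negative and 7 positive, with a median of 0.05. A negative probe among them covers several genes of the major histocompatibility locus, with CREB-RP as only one of those its title names. The list also holds Ngfi-A binding proteins 1 and 2, so the counts and median are not of upstream signalling genes alone. Over all 16 the signs were 8 negative and 8 positive. Harvey rat sarcoma oncogene, subgroup R, below the filter, had the smallest unadjusted p of the 16 (-0.53 ± 0.24, adjusted p = 0.939 in limma over all probes). Among the 11 tested, the smallest belonged to mitogen activated protein kinase 1, the ERK2 kinase, at -0.46 ± 0.23, and mitogen activated protein kinase 10 at 0.41 ± 0.27. Next came Ngfi-A binding protein 2, a corepressor of Egr1, at 0.40 ± 0.28, and ribosomal protein S6 kinase, 90kD, polypeptide 2, at -0.28 ± 0.19.

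Across the 16 male arrays, all with background readings under 70, Pearson's r between pairs of the 5 genes ran from -0.22 (Jun and Ier3) to 0.54 (Jun and Fosl2). These arrays share groups and normalisation, and the values are descriptive. Among 821 gene-titled probes, the patterns most like Jun were prostatic acid phosphatase (r = 0.73) and kinesin heavy chain member 4 (0.71). Jun and both of these were above background on only 4 of the 16 arrays each, so most of these readings lay at background level. Those most like Fosl2 were neuron specific gene family member 2 (0.87) and caudal type homeo box 2 (0.73), above background on 13 and 6 arrays, with Fosl2 on 3. For Klf10 they were zinc finger protein 62 (0.91) and gamma-fibrinogen (0.81), and for Ier3 the transporter ABCA1 (0.90) and sterol O-acyltransferase 1 (0.80). Klf10 was above background on 13 of these arrays and its matches on 16 each, and Ier3 on 9 and its matches on 11 and 15. The median r over the 821 probes was 0.08 for Jun, 0.06 for Fosl2, 0.02 for Klf10 and 0.02 for Ier3. The values named are the highest of 821 and so are high by selection.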

How the data were processed

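The deposited spot files give 1 linear intensity per cDNA, as signal, and 1 background reading per array, per the file headers; the quantification software is not given in the sources used here. The deposited value table holds a score equal to 8 plus 2 times the z score of the log2 signal, as found by comparison (largest difference 6.58e-09), blank at nearly all spots at or below background. Of 5355 spots, 192 were genomic DNA controls.

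Signals were corrected with normexp (offset 50 where the array median was at least 500, otherwise 0.1 of the median), quantile-normalised and log2-transformed. The 31 arrays were fitted with 1 mean per group (limma 3.58.1, R 4.3.3, 23 residual degrees of freedom) with Benjamini-Hochberg adjustment over all tested probes in each of 9 comparisons. After the first results were seen, 9 other background and offset settings were compared, and the first setting was kept. A test on simulated data was run, and its outcome is not given here. Pools are separate animals, and the number of arrays limits the precision. Pairing was checked by replicate number and not used, since 4 of 15 same-numbered pairs correlated above 0.1. Named genes are the 5 members, up to 4 tested members per pathway list by smallest unadjusted p (homer 1 and the Harvey ras gene were added after their values were seen), and the 2 probes most like each tested member. Members and lists were chosen with earlier results of these data known. The header name of female WSP EtOH 1-2 ends in pool 1; the deposited record was followed.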

Additional observations from a re-analysis of the deposited data

Results flagged for a closer look

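Egr1 in female WSP EtOH had 1 array far below the other 3, 2-2 at 4.11 (log2), and in female WSP Air 1 array far above the other 3, 1-1 at 7.14. These were 2 of 35 groups examined for such a gap, and chance flags about 1 in 20.

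Egr1 differed by -0.82 between EtOH and Air in female WSP and by 0.56 in male WSP. Every female WSP EtOH array lay below the Air mean of its set, and every male WSP EtOH array above it. The groups still overlapped. Female WSP Air 1-2, 2-1 and 2-2, at 5.67, 5.77 and 5.72, also lay below their mean of 6.08, and EtOH 1-1 at 5.80 lay above them. Male WSP Air 2-2 at 5.35 lay within the EtOH range of 4.94 to 5.62. No female WSP EtOH array and no male WSP Air array was above background, so both differences are set against background-level readings. This difference was not tested by itself. Over both lines, the female minus male difference in Egr1 response was -0.90 ± 0.63 (limma, adjusted p = 1.00).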

How the results depend on the processing

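For the mean EtOH response, no member passed the threshold under any alternative, and 188 of 207 recomputed member values kept their sign. The signs that turned were those of Jun without background correction (0.0097), with the replicate block (0.0052), on high-background arrays alone (0.64) and as z scores without blanks (0.083); Fosl2 (0.052) and Ier3 (0.28) on low-background arrays alone; and Klf10 on high-background arrays alone (0.042) and in the deposited value table (0.11). Without 1 array each in turn, Jun ran from -0.11 to 0.056 and Ier3 from -0.29 to 0.060. The cause was not tested.

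For the mean EtOH response, the deposited value table called 26 probes, against 0. For female WSP, 13 were called with array weights and 36 in the deposited table, and leaving out 1 array gave 0 to 1. For female WSR, where 6 were called, the count was 0 with cyclic loess, median scaling, array weights, high-background arrays alone or arrays labelled female alone, 3 with selection replicate as a block, 15 with the excluded array put back, 18 with the filter at the 50th percentile, 19 with background class as a term, 67 in the deposited table and 90 as z scores without blanks. Leaving out 1 array gave 0 to 89 there, the highest without female WSR EtOH 1-1. In the response by line the deposited table called 14, and in the response by sex label 26.

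Between lines, where 2 were called, the count was 0 with median scaling, no filter, low-background arrays alone, high-background arrays alone, the excluded array put back, an offset from the corrected median or an offset of 5 on dim arrays. It was 12 with normexp by maximum likelihood, with or without subtracting the background reading first, 22 without background correction, 24 with the replicate block, 24 with background class as a term, 33 with an offset of 50 from a median of 100, 62 with the filter at the 50th percentile, 65 as z scores without blanks, 357 in the deposited table and 375 with array weights. Leaving out 1 array gave 0 to 85, the highest without female WSR Air 2-1. Between sex labels, where 1021 were called, the count was 462 with cyclic loess (253 higher and 209 lower in females), 149 on low-background arrays alone and 0 with background class as a term.

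Members called, 0 otherwise, were 1 in female WSR (Klf10; 4.39% of 1526 probes called), 1 between lines (Klf10; 31.8% of 1124) and 2 between sex labels (Klf10 and Ier3; 767 probes, 68.2%), all in the deposited table, which keeps few readings below background (1 EtOH array for Klf10 in female WSR), and between sex labels 0 to 1 when 1 array was left out (Egr1). Egr1 passed the filter in 4 of the 31 fits that left out 1 array. The offset settings, normexp by maximum likelihood, high-background arrays alone and z scores without blanks were chosen after seeing the data. The numbers did not pair the samples: correlations of same-numbered EtOH and Air arrays ran from -0.17 to 0.20, 5 of 15 EtOH arrays correlated best with their own number; the block called no member.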
